A study of Arabidopsis thaliana with 24 samples.

Results

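*CYSTM8* (AT3G22235), *PCC1* (AT3G22231) and AT3G22240 are 3 neighbouring genes of *Arabidopsis* that encode short proteins with a cysteine-rich membrane module, and they are 3 of the 28775 genes in the expression table. They were chosen by locus, and the choice rests on measured values: *CYSTM8* was selected for its higher level in *nrt1.13* than in wild type, and the other 2 genes are its relatives on either side. The genotype difference of these genes is therefore described here without a test, while the effects of nitrate supply and of harvest day were not used in the choice and were tested.

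Proteins with a cysteine-rich transmembrane (CYSTM) module are a family of short proteins found across eukaryotes, with a variable start and a conserved cysteine-rich tail that lies at or in the membrane, and many have been linked to stress tolerance. *PCC1*, whose name stands for *PATHOGEN AND CIRCADIAN CONTROLLED 1*, is known as a gene that responds to pathogens through salicylic acid, follows the circadian clock and affects flowering time. TGA transcription factors, which work with the salicylic acid receptor NPR1, bind the sequence TGACG, the core of the as-1 element.

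RNAseq values came from shoots of Col-0 plants (wild type) and of *nrt1.13*, a single mutant line with a T-DNA insertion in an exon of the NRT1/PTR family gene *NRT1.13*. All plants were grown hydroponically on 0.2 or 2 mM KNO3, with KCl making up the potassium of the lower supply, and were harvested at 16 or 25 days. These combinations gave 8 groups of 3 plants, and each of the 24 libraries came from a single plant. The labels count the days from germination in places and from sowing in others. Between 23608279 and 46155689 reads (median 35030938) lay behind a library's values, and a CPM (the scaled read count of a gene in the table) of 2 stood for 45.5 to 90.8 reads. Whether single reads or read pairs were counted is not given in the sources used here, so each unit called a read may be a pair. *NRT1.13* had 7.07 to 10.2 CPM in the 12 wild type plants and 2.19 to 4.65 CPM in the 12 *nrt1.13* plants, without overlap. The green tissue gene *RBCS1A*, the small subunit of Rubisco, had 16535 to 23944 CPM, whereas the sum of 4 root genes (*CASP1*, *COBL9*, *EXPA7* and *NRT2.1*) reached at most 2.25 CPM and the sum of 4 flower organ genes at most 9.29 CPM. In whole shoots, fewer cells that express a gene and less RNA per cell cannot be told apart.

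The 3 genes lie head to tail on the minus strand of chromosome 3. In TAIR10.1, *PCC1* spans chr3:7845823-7846833, *CYSTM8* chr3:7854419-7855814 and AT3G22240 chr3:7863606-7864895, with 7585 bases between the first pair and 7791 between the second. Each has 3 exons. The whole array covers 19073 bases. The annotation places 4 transcribed pseudogenes of ribulose-bisphosphate carboxylases (AT3G22232, AT3G22234, AT3G22237 and AT3G22238) on the other strand between them, and a noncoding RNA, AT3G00400, on the same strand 459 bases from *CYSTM8*. None of these 5 had values in the expression table. AT3G00400 was included in the search for shared sequence below, and it shared 0 runs of 75 bases with the 3 genes.

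The coding sequences are shown because *CYSTM8* shared a different end with each neighbour. They are printed 5′ to 3′ from RefSeq (TAIR10.1), with the cysteine codons in capitals.

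PCC1: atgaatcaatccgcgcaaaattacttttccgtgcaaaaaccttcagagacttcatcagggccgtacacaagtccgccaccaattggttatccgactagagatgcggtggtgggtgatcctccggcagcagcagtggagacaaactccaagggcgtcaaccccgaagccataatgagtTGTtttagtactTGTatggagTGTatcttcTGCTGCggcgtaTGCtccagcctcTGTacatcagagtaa
CYSTM8: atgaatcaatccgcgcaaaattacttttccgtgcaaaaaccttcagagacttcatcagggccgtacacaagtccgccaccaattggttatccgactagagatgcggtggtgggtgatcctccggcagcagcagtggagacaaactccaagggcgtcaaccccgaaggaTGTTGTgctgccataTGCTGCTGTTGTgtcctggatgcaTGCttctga
AT3G22240: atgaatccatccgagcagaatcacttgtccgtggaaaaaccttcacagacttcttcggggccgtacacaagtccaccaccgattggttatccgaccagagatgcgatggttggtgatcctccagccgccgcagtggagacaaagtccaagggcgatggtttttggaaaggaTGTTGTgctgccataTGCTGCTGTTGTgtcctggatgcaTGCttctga

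The first 166 coding bases of *CYSTM8* were identical to those of *PCC1*, which is 55 residues of protein, and the last 53 coding bases were identical to those of AT3G22240. In the other combinations the runs were short, with 7 identical bases from the start between *CYSTM8* and AT3G22240 and 1 from the end between *CYSTM8* and *PCC1*. The change of partner fell near the border of exons 2 and 3. In exon 1, 207 of 208 aligned bases (99.5%) of *CYSTM8* matched *PCC1*, and in exon 2 the figure was 138 of 139 (99.3%). In exon 3, *CYSTM8* matched AT3G22240 at all 228 aligned bases (100%). By contrast, 119 of 134 aligned bases (88.8%) of exon 2 matched between *CYSTM8* and AT3G22240. The protein of *CYSTM8* (71 residues) was 84.5% identical to that of *PCC1* (81 residues) and 83.1% identical to that of AT3G22240 (72 residues), and those of *PCC1* and AT3G22240 were 66.7% identical to each other. Each protein has 7 cysteines. All 7 lie in the last 20 residues in *CYSTM8* and AT3G22240, and 6 of 7 in *PCC1*, in a tail of another spacing.

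Upstream, *CYSTM8* resembled *PCC1* as well. The 250 bases before the annotated start of each are shown with matches to TGACG (on either strand) in capitals.

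PCC1: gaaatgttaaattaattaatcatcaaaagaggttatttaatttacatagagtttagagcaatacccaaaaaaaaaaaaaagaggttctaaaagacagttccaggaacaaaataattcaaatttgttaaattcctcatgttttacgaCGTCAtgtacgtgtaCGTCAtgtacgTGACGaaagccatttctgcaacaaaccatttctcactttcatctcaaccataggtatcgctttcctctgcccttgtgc
CYSTM8: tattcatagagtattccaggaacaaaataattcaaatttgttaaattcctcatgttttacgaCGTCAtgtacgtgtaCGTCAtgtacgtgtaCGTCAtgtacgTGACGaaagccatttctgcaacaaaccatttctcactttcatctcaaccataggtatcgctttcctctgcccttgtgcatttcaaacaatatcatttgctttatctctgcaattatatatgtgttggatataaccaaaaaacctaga

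These windows lie at chr3:7846834-7847083 and chr3:7855815-7856064 on the minus strand. They aligned over 166 bases with 95.8% identity. The *PCC1* window held 3 TGACG matches, whose first bases on the printed strand were at -104, -89 and -78 from the start. The *CYSTM8* window held 4, at -188, -173, -158 and -147. The spacing was 15 bases between the first matches and 11 bases between the last pair in both genes, so that *CYSTM8* carried an extra copy of the repeated unit. No TGACG was found in the same window of AT3G22240. Of 27443 promoters of protein-coding genes, 18.6% held at least 1 TGACG. The W-box core TTGAC (in 44.9% of promoters), the evening element AAAATATCT (2.36%), the CCA1 binding site AAAAATCT (6.69%) and the G-box CACGTG (6.49%) matched none of the 3 windows on either strand. A match is a run of letters and not a shown binding site.

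The shared sequence sets which reads can be assigned, because the authors kept only reads that mapped to a single place. Of the 596 words of 75 bases (the read length) in the longest *CYSTM8* transcript, 429 (72%) also occurred elsewhere in the genome. Of these words, 173 were in *PCC1*, 235 in AT3G22240 and 21 just beyond the annotated end of AT3G22240. For *PCC1* the share was 213 of 699 words (30.5%), and for AT3G22240 161 of 547 (29.4%), in both genes with *CYSTM8* as the only other place. No 75-base word was common to *PCC1* and AT3G22240. With up to 2 mismatches, 85.6% of the *CYSTM8* words, 42.1% of the *PCC1* words and 29.8% of the AT3G22240 words had another place. With exact matching, the words unique to *CYSTM8* covered 2 stretches of its transcript. These were bases 1 to 170 at its start and bases 270 to 414 around the junction of exons 2 and 3. How read pairs with a single unique mate were assigned is not given in the sources used here. How far the *CYSTM8* values rest on these stretches is therefore not known.

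**Figure D1:**
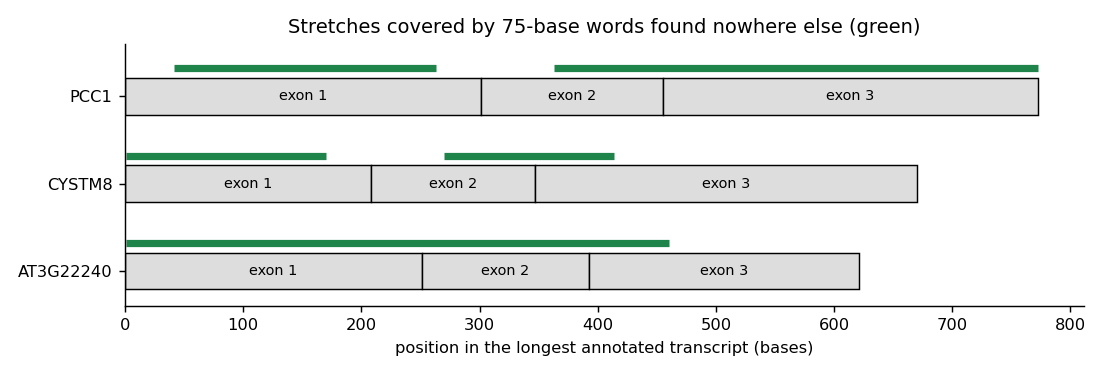
Exons (grey boxes) of the longest annotated transcript of each gene against the position in bases, with green bars over the stretches covered by 75-base words found nowhere else in the genome. *CYSTM8* has 167 such words against 486 for *PCC1* and 386 for AT3G22240.

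Of the 3 genes, *PCC1* and *CYSTM8* were abundant in every plant and AT3G22240 was barely detected. *PCC1* ranged from 224 to 1667 CPM (median 954) and *CYSTM8* from 211 to 3235 CPM (median 1407) over the 24 libraries, so that 0.368% and 0.219% of the genes in the table had a higher median. AT3G22240 ranged from 0.372 to 1.65 CPM (median 0.881), which is 12 to 54 reads in a library, and reached 2 CPM in 0 of 24 libraries. It was therefore outside the genes tested with the linear model, and 2 of the 3 members passed that filter. Per kb of transcript in wild type at 2 mM KNO3 and 16 days, the level was 1931 ± 40.6 CPM (SD, n = 3) for *CYSTM8*, 1362 ± 105 for *PCC1* and 1.8 ± 0.564 for AT3G22240. Per kb of unique word starts, the same groups gave 7747 ± 163, 2166 ± 167 and 2.9 ± 0.908 CPM. With words counted as unique at up to 2 mismatches, they gave 15043 ± 316, 2599 ± 201 and 2.92 ± 0.912 CPM. The distance between *CYSTM8* and *PCC1* thus depends on the scale, with a ratio of 1.42, 3.59 and 5.8. The order of the 3 genes was the same on the 3 scales in each of the 8 groups. In wild type at 0.2 mM and 25 days, *CYSTM8* and *PCC1* were close per kb of transcript (541 ± 208 and 519 ± 218 CPM). Both were measured in the same plants, and their ratio within plants averaged 1.05 on this scale. Per kb of unique starts, the 2 genes were at 2171 ± 833 and 825 ± 346 CPM.

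*PCC1* was lower at the lower nitrate supply, and far more so at 25 than at 16 days. In wild type at 25 days, its level was 1339, 1346 and 1469 CPM with 2 mM KNO3 and 558, 421 and 224 CPM with 0.2 mM. In *nrt1.13* at 25 days, it was 1667, 1522 and 1390 CPM with 2 mM and 491, 688 and 737 CPM with 0.2 mM. The groups did not overlap in either genotype. The change was 3.69-fold in wild type (log2 difference -1.88 ± 0.20 SE, adjusted *P* = 2.23e-08) and 2.42-fold in *nrt1.13* (-1.27 ± 0.20, adjusted *P* = 1e-05), where 20.1% and 20.9% of the 15108 genes tested were called lower.

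At 16 days the nitrate difference of *PCC1* was small. Wild type plants had 1070, 1124 and 964 CPM with 2 mM and 743, 950 and 730 CPM with 0.2 mM. Plants of *nrt1.13* had 1005, 989 and 958 CPM with 2 mM and 672, 645 and 900 CPM with 0.2 mM. Although the supplies did not overlap in either genotype, the log2 differences of -0.39 ± 0.20 (adjusted *P* = 0.23) and -0.43 ± 0.20 (adjusted *P* = 0.21) did not pass the test, which called 3.06% of genes lower in wild type and 1.1% in *nrt1.13*. Averaged over genotypes and days, *PCC1* was 1.99-fold lower at 0.2 mM (log2 difference -0.99 ± 0.10, adjusted *P* = 9.45e-09), in a contrast where 20.2% of genes were called lower. The change of the nitrate effect from 16 to 25 days was itself called (-1.17 ± 0.20, adjusted *P* = 2.42e-05), as it was for 25.4% of genes in this direction.

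*CYSTM8* was likewise called lower at 0.2 mM at 25 days and not at 16 days. In wild type at 25 days, it had 1456, 1402 and 1500 CPM with 2 mM KNO3 and 484, 392 and 211 CPM with 0.2 mM. In *nrt1.13* at 25 days, it had 3235, 2993 and 2998 CPM with 2 mM and 785, 1271 and 1389 CPM with 0.2 mM. The supplies again did not overlap, and the changes were 4.24-fold (log2 difference -2.09 ± 0.21, adjusted *P* = 1.55e-08) and 2.76-fold (-1.46 ± 0.21, adjusted *P* = 4.36e-06).

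At 16 days no nitrate difference of *CYSTM8* passed the test. Wild type plants had 1293, 1321 and 1267 CPM with 2 mM and 1061, 1411 and 995 CPM with 0.2 mM. Plants of *nrt1.13* had 2404, 2236 and 2194 CPM with 2 mM and 1915, 1719 and 2887 CPM with 0.2 mM. In both genotypes 1 plant at 0.2 mM was above all plants at 2 mM, and the log2 differences were -0.18 ± 0.21 and -0.10 ± 0.21 (adjusted *P* = 0.652 and 0.819). On average *CYSTM8* was 1.94-fold lower at 0.2 mM (-0.96 ± 0.11, adjusted *P* = 6.29e-08), and its nitrate effect was larger at 25 than at 16 days (-1.63 ± 0.21, adjusted *P* = 6.5e-07).

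**Figure D2:**
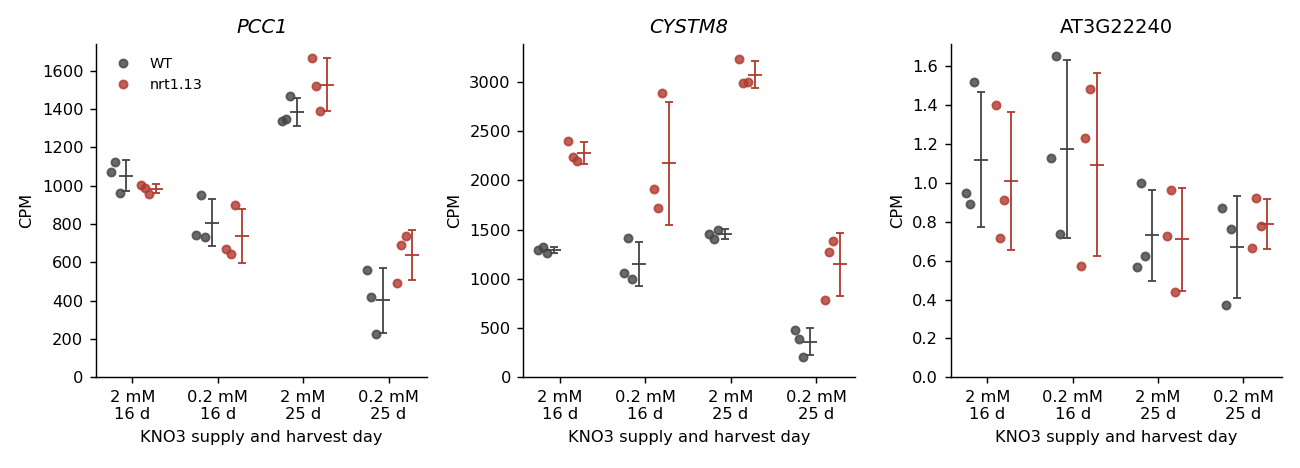
CPM of each plant (points) with the mean and SD of its group (bars) for the 3 genes by KNO3 supply and harvest day, in wild type (grey) and *nrt1.13* (red), with a separate linear scale in each panel. *PCC1* and *CYSTM8* are lowest with 0.2 mM at 25 days, and *CYSTM8* is higher in *nrt1.13* in all 4 conditions.

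Between 16 and 25 days at the lower supply, both genes fell in wild type and *CYSTM8* also in *nrt1.13*. With 0.2 mM KNO3, *CYSTM8* fell 3.34-fold in wild type (log2 difference -1.74 ± 0.21, adjusted *P* = 1.48e-07) and 1.9-fold in *nrt1.13* (-0.93 ± 0.21, adjusted *P* = 0.000729). *PCC1* fell 2.14-fold in wild type (-1.10 ± 0.20, adjusted *P* = 3.76e-05), and in *nrt1.13* its difference of -0.22 ± 0.20 did not pass (adjusted *P* = 0.373). In these comparisons 31.2% of genes were called lower in wild type and 29.4% in *nrt1.13*, so a fall with age at the lower supply was common.

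With 2 mM KNO3, the day differences were above 0 in all 4 comparisons, and 1 passed the test. *PCC1* was 1.55-fold higher at 25 days in *nrt1.13* (0.63 ± 0.20, adjusted *P* = 0.0409), where 3.82% of genes were called higher. This call was lost under 9 of 34 alternatives, among them each library of these 2 groups left out in turn, with values from 0.56 to 0.70. In wild type *PCC1* differed by 0.40 ± 0.20 (adjusted *P* = 0.248), in a comparison with 2.46% of genes called higher. *CYSTM8* differed by 0.17 ± 0.21 in wild type and 0.43 ± 0.21 in *nrt1.13* (adjusted *P* = 0.708 and 0.209). Averaged over supplies and genotypes, *CYSTM8* was 1.43-fold lower at 25 days (-0.52 ± 0.11, adjusted *P* = 0.000158), as were 36.7% of all genes, and *PCC1* was near its level at 16 days (-0.07 ± 0.10, adjusted *P* = 0.543).

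**Figure D3:**
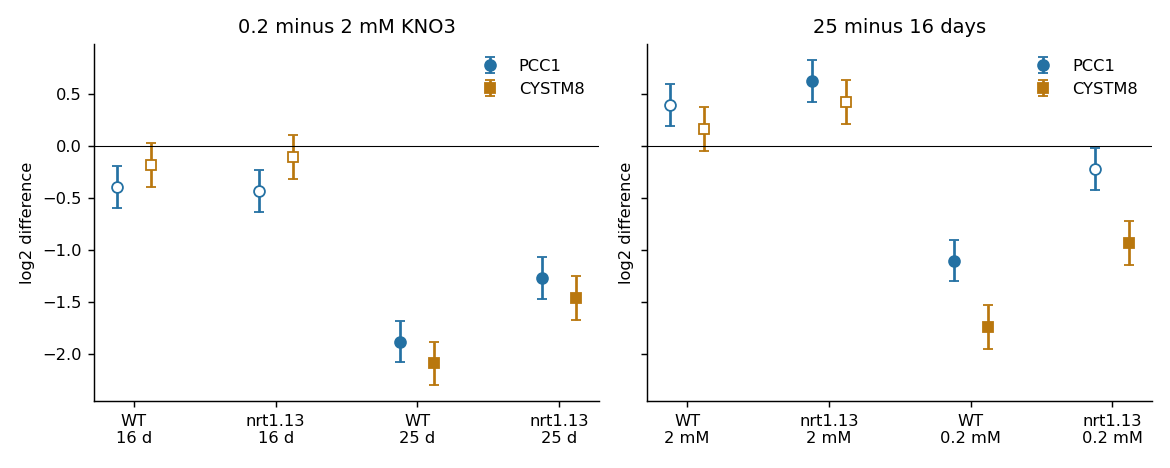
Log2 difference with its SE for *PCC1* (blue circles) and *CYSTM8* (orange squares) between supplies in each genotype and day (left) and between days in each genotype and supply (right), with filled symbols at an adjusted *P* of at most 0.05. Both genes are called lower at 0.2 mM at 25 days in both genotypes and in none of the 16-day comparisons.

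The third gene, AT3G22240, did not share this pattern. Its group means ranged from 0.668 ± 0.262 CPM in wild type at 0.2 mM and 25 days to 1.17 ± 0.459 CPM in wild type at 0.2 mM and 16 days (SD, n = 3). The supplies overlapped within each genotype and day. The nitrate difference averaged 0.03 on the log2 scale (two-sided exact permutation test within genotype and day, *P* = 0.855), and 3 of 4 strata were above 0 and 1 below. It was lower at 25 than at 16 days in 4 of 4 strata, by 0.695-fold on average (log2 difference -0.52, two-sided exact permutation test within genotype and supply, *P* = 0.00988, adjusted over these 2 tests 0.0198). The day difference of AT3G22240 was -0.27 with a pseudocount of 1 in place of 0.1. With 12 to 54 reads a library, smaller changes may have gone unseen, and no limit of detection was computed.

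The genotype difference for which *CYSTM8* was selected is given as values only. *CYSTM8* was higher in every *nrt1.13* plant than in every wild type plant of the same condition. The ratio of the group means on the log scale was 1.76-fold with 2 mM at 16 days, 1.85-fold with 0.2 mM at 16 days, 2.12-fold with 2 mM at 25 days and 3.26-fold with 0.2 mM at 25 days. *PCC1* differed by 0.937-fold, 0.911-fold, 1.1-fold and 1.68-fold in the same conditions, and its genotypes overlapped in all of them. The averaged log2 difference was 1.12 ± 0.11 SE for *CYSTM8* and 0.16 ± 0.10 for *PCC1*. AT3G22240 had an averaged difference of -0.01, and its genotypes overlapped in every condition.

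Other values differed between the genotypes in the same libraries. The summed level of 4 flower organ genes (*AP3*, *PI*, *AG* and *SEP3*) was lower in *nrt1.13* in every condition, without overlap, for example 4.25 to 9.29 CPM in wild type and 2.61 to 3.43 CPM in *nrt1.13* with 2 mM at 16 days, and 2 to 6.39 CPM against 1.18 to 1.27 CPM with 0.2 mM at 25 days. The part of these genes' tissues in the *CYSTM8* values was not tested. With 0.2 mM at 25 days, the median log2 genotype difference of the 19 tested salicylic acid genes was 0.13, against -0.004 for all genes. Of these 19, 3 were called higher in *nrt1.13* and 0 lower, where 22 and 17 of 15108 genes were. The 3 were *LURP1* (1.05 ± 0.22, adjusted *P* = 0.0322), *WRKY54* (0.98 ± 0.17, adjusted *P* = 0.0043) and *WRKY70* (0.74 ± 0.15, adjusted *P* = 0.0184). In each of the other conditions 0 of 19 were called. Their link to the *CYSTM8* values was not tested. The paper had already reported *LURP1* and *WRKY54* as higher in *nrt1.13* with 0.2 mM at 25 days, from these same libraries. The list was chosen with such results known. Its count of 3 and its median may be raised by the choice and cannot be weighed against the values of all genes.

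Within a plant, *CYSTM8* and *PCC1* rose and fell together. Their deviations from the 8 group means had a Pearson correlation of 0.963 over the 24 libraries, where both genes share a plant's scaling and some identical sequence. No other tested gene correlated more closely with *PCC1* on this measure. The ratio of *CYSTM8* to *PCC1* (CPM over CPM, a quantity that cancels the scaling of a library) had a coefficient of variation within groups from 3% to 9.49%. With 0.2 mM this was 4.31% to 9.49%, against 15.3% to 41.9% for *PCC1* and 19.4% to 38.4% for *CYSTM8*. With 2 mM the ratio was not tighter throughout. It had 3% to 5.86%, against 2.4% to 9.09% for *PCC1* and 2.1% to 4.88% for *CYSTM8*. In wild type with 0.2 mM at 25 days, where *PCC1* varied most (224 to 558 CPM), the 3 plants had ratios of 0.867, 0.932 and 0.942.

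The ratio separated the genotypes, as described by values alone. It was 0.867 to 1.49 in the 12 wild type plants and 1.6 to 3.21 in the 12 *nrt1.13* plants. By condition, it was 1.23 ± 0.0722 (SD, n = 3) against 2.31 ± 0.0695 with 2 mM at 16 days, and 1.42 ± 0.0614 against 2.91 ± 0.276 with 0.2 mM at 16 days. At 25 days it was 1.05 ± 0.0338 against 2.02 ± 0.118 with 2 mM and 0.914 ± 0.0404 against 1.78 ± 0.155 with 0.2 mM. The lowest *nrt1.13* plant of all lay above the highest wild type plant.

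The ratio also shifted with nitrate and with day, in the same direction in both genotypes. At 16 days it was 1.2-fold higher with 0.2 mM than with 2 mM (log2 difference 0.27), and at 25 days it was 0.874-fold that with 2 mM (-0.19). From 16 to 25 days it changed 0.626-fold with 0.2 mM (-0.68) and 0.863-fold with 2 mM (-0.21). Each of these 4 differences had *P* = 0.005 in a two-sided exact permutation test within genotype, the smallest value that the 400 arrangements can give, and 0.005 after adjustment over the 4 tests, with both genotypes moving the same way. These tests were chosen after the values were seen. With 0.2 mM, the day difference of *CYSTM8* was further below 0 than that of *PCC1* in both genotypes. With 2 mM, the day differences of both genes were above 0, and that of *PCC1* was the larger.

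**Figure D4:**
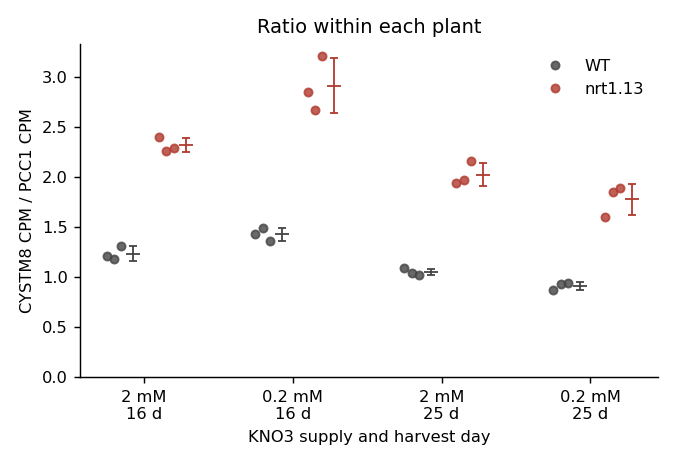
Ratio of *CYSTM8* to *PCC1* CPM in each plant (points) with the mean and SD of its group (bars) by KNO3 supply and harvest day, in wild type (grey) and *nrt1.13* (red). Wild type plants lie between 0.867 and 1.49 and *nrt1.13* plants between 1.6 and 3.21, and both genotypes are highest with 0.2 mM at 16 days.

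By BLASTP, 6 other genes encode proteins related to the members (AT1G05340, AT1G56060, AT2G32190, AT2G32200, AT2G32210 and AT5G04080), each with AT3G22240 as its closest member. They were far less abundant than *PCC1* and *CYSTM8* (medians from 0.0599 to 7.4 CPM), and AT5G04080 was the 1 gene that passed the filter. It was lower at 0.2 mM in wild type (log2 difference -0.60 ± 0.13, adjusted *P* = 0.000478) and in *nrt1.13* (-0.52 ± 0.13, adjusted *P* = 0.00181) at 25 days, and not at 16 days in wild type (0.08 ± 0.13, adjusted *P* = 0.759). Its nitrate effect also differed between the days (-0.61 ± 0.13, adjusted *P* = 0.000347). The averaged genotype difference of AT5G04080 was 0.06 ± 0.06 on the log2 scale.

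Of the 8 nearest annotated genes, 5 were tested, and on the nitrate average 1 was called lower and 1 higher, a share near that of all genes (20.2% and 21.6%), with a median log2 difference of -0.06 against 0.01 for all genes tested. AT3G22230, which encodes a ribosomal protein of the L27e family and is the nearest coding gene beside *PCC1*, was 1.74-fold higher at 0.2 mM in wild type at 25 days (0.80 ± 0.08, adjusted *P* = 6.61e-09), the reverse of *PCC1*, with a change of the nitrate effect between days of 0.96 ± 0.08 (adjusted *P* = 2.78e-10).

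In the list of 31 salicylic acid genes, 19 were tested, and 14 of them were lower at 0.2 mM on the nitrate average and 0 higher, where 20.2% of all genes tested were called lower and 21.6% higher. Their median log2 difference was -0.40, against 0.01 for all genes tested. The 4 largest changes were those of *LURP1*, a gene of defence against a downy mildew (-1.75 ± 0.11, adjusted *P* = 6.08e-12), the transcription factor genes *WRKY70* (-1.39 ± 0.07, adjusted *P* = 8.5e-13) and *WRKY54* (-1.08 ± 0.08, adjusted *P* = 1.41e-10), and *SARD1*, an activator of salicylic acid synthesis (-1.04 ± 0.08, adjusted *P* = 3.24e-10). The falls of *PCC1* (-0.99) and *CYSTM8* (-0.96) were just smaller than these, and the next gene of the list was at -0.81. *ICS1*, which encodes the main enzyme of salicylic acid synthesis, was at -0.05 and did not pass (adjusted *P* = 0.551), and of the 4 tested TGA genes *TGA3* was called lower (-0.32) and *TGA2*, *TGA5* and *TGA6* were not called. At 25 days, 14 of 19 genes were lower at 0.2 mM in each genotype, where 20.1% of all genes were in wild type and 20.9% in *nrt1.13*. At 16 days, 6 were lower in wild type and 2 in *nrt1.13*, where 3.06% and 1.1% of all genes were, so the count rose with age over all genes as well as in the list. The change between days was called toward lower values for 12 of 19 genes and for 25.4% of all genes, including *LURP1* (-1.97 ± 0.22, adjusted *P* = 7.23e-08) and *WRKY70* (-1.93 ± 0.15, adjusted *P* = 1.59e-10). *PR1*, a widely used marker of salicylic acid response, had 0 to 7.92 CPM and was not tested.

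**Figure D5:**
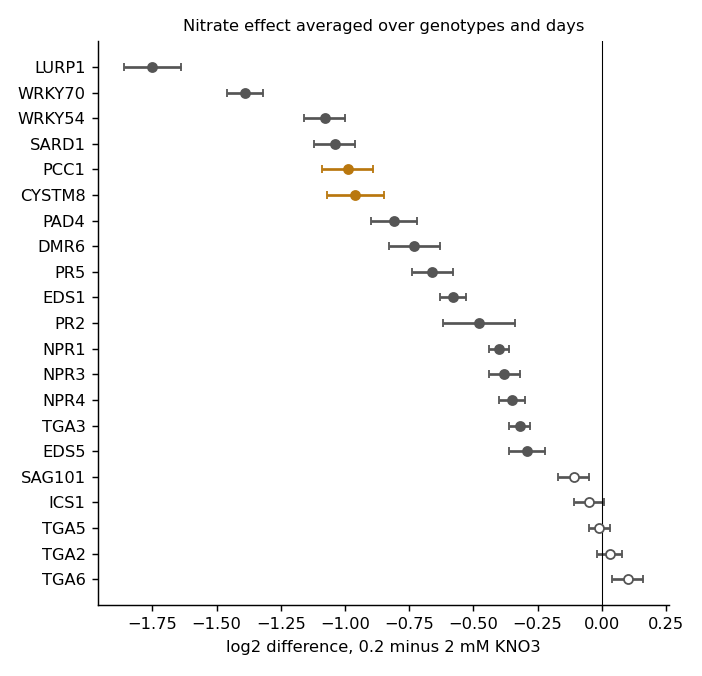
Log2 difference with its SE between 0.2 and 2 mM KNO3, averaged over genotypes and days, for the 19 tested genes of the salicylic acid list (grey) and for *PCC1* and *CYSTM8* (orange), with filled symbols at an adjusted *P* of at most 0.05. The values run from -1.75 for *LURP1* to 0.10 for *TGA6*, and *PCC1* (-0.99) and *CYSTM8* (-0.96) stand among the larger falls.

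In the clock list of 12 genes, 8 were tested, and on the nitrate average 4 were called higher and 1 lower, where 21.6% of all genes were called higher and 20.2% lower. Those higher were *CO* (0.23 ± 0.07), *PRR7* (0.20 ± 0.04), *GI* (0.14 ± 0.04) and *ELF3* (0.14 ± 0.03), and *LUX* was lower (-0.15 ± 0.03), with a list median of 0.07. The average hides *ELF4*, a gene of the evening complex, whose nitrate effect changed sign between the days. In wild type it was higher at 0.2 mM at 16 days (0.72 ± 0.07, adjusted *P* = 2.08e-06) and lower at 25 days (-0.76 ± 0.07, adjusted *P* = 3.56e-09), and the change over both genotypes was called (-1.25 ± 0.07, adjusted *P* = 6e-13). In wild type at 25 days, 4 of the 8 clock genes were called higher and 2 lower, where 18.9% and 20.1% of all genes were. The morning genes *LHY* and *CCA1* had at most 0.835 and 1.31 CPM in any library, and the evening gene *TOC1* had 166 to 261 CPM. With day, 5 of 8 were called lower, led by *ELF4* (-1.23 ± 0.03, adjusted *P* = 1.9e-19), where 36.7% of all genes were.

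Genes most like each member over the 24 libraries are given as a description. The highest Pearson correlations with *PCC1* were those of *CNGC11*, a cyclic nucleotide-gated channel gene (0.980), *RLK1*, a receptor-like kinase gene (0.977), and AT5G03350 (0.974). Those with *CYSTM8* were AT5G38980 (0.914), *ECS1* (0.892), AT1G14200 (0.889), AT3G15900 (0.887) and AT2G35810 (0.886), while *PCC1* itself correlated at 0.821 with *CYSTM8*, behind 93 other tested genes. Once group means were removed, *PCC1* moved up to 0.963, just behind *TIR* (0.964). At 0.2 mM in wild type at 25 days, the log2 nitrate difference was -1.51 for *ECS1* and -2.32 for *CNGC11*. AT3G22240 was closest to *EID1* (0.804), AT4G10955 (0.774) and *PRA7* (0.727), and correlated at 0.113 with *PCC1* and 0.219 with *CYSTM8*. Genes of 1 library share its depth and scaling, so these values carry no test.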

How the data were processed

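Whole-shoot RNA of 24 plants was sequenced as paired reads of 75 bases. Per the paper's methods, the authors used CLC Genomics Workbench 10 with TAIR10, kept unique matches with at most 2 mismatches, and deposited a CPM signal per gene. Strand use in counting is not given in the sources used here. All values were whole multiples of a step per library (tolerance 0.1 read), so reads were recovered. Library sums were 968394 to 1038371, so a further scaling is in the values. Replicates are separate plants. Whether they shared a vessel is not given, so *P* values measure the spread between these plants.

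The 3 members, the lists and the tests were chosen with earlier results of these data known. Log2(CPM + 0.1) was fitted with limma 3.58.1 (R 4.3.3) on 8 group means, with 16 residual degrees of freedom and a variance trend, for the 15108 genes whose CPM reached 2 in each of 24 libraries. Fold changes are on this scale, and adjusted *P* (Benjamini-Hochberg over all genes tested) of at most 0.05 was called. Contrasts were 0.2 minus 2 mM and 25 minus 16 days, within groups and averaged, and their interaction. For the salicylic acid list, *nrt1.13* minus wild type was also tested within each condition. AT3G22240 and the ratio were tested with two-sided exact permutation tests. Coordinates and sequences are those of RefSeq TAIR10.1, whereas the values were made on TAIR10. Relatives were found with BLASTP (BLAST+ 2.17.0+, E of at most 0.001). Genes were named by rule: members, *NRT1.13*, CYSTM relatives, the 5 genes most correlated with *CYSTM8* and the 3 most correlated with the others, and the 4 largest calls per list and direction. *AT3G22230*, *ICS1*, *PR1*, *TIR*, *ELF4*, the TGA genes and the morning and evening clock genes were named after their values were seen. The linear model was also run on simulated counts, drawn independently, with known changes on the nitrate average. That run did not cover shared sequence, the other contrasts or the permutation tests. Alternatives were pseudocounts, filters, scalings, limma without trend, edgeR 4.0.16 and DESeq2 1.42.0 on recovered reads, a replicate block and each library left out.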

Additional observations from a re-analysis of the deposited data

Results flagged for a closer look

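The nitrate effect (0.2 minus 2 mM KNO3) differed between the days by a test of the difference itself for *PCC1* and *CYSTM8*, and in all for 22 of 33 tested genes with values in the text, 19 toward lower values. Over all 15108 genes tested, 3837 (25.4%) were called toward lower values and 3282 toward higher values. Many of the 33 genes were chosen by their values in these same libraries. Their count is therefore raised by the choice and cannot be weighed against the share of all genes. On the log2 scale, the effect at 25 days minus that at 16 days was -1.17 for *PCC1* and -1.63 for *CYSTM8*. Among salicylic acid genes it was -1.97 for *LURP1*, -1.93 for *WRKY70*, -0.93 for *SARD1*, -0.84 for *WRKY54* and -0.82 for *TGA3*. Among clock genes it was -1.25 for *ELF4*, -0.32 for *LUX*, -0.19 for *TOC1*, 0.36 for *GI* and 0.23 for *ELF3*. The CYSTM relative AT5G04080 had -0.61 and the neighbour AT3G22230 0.96. Genes chosen for their correlation with *PCC1* over the same libraries had -1.31 (*CNGC11*), -1.65 (*RLK1*) and -1.09 (AT5G03350). Those chosen likewise for *CYSTM8* had -0.35 (AT5G38980), -1.16 (*ECS1*), -0.80 (AT1G14200), -0.48 (AT3G15900) and -0.62 (AT2G35810). The ratio of *CYSTM8* to *PCC1* was higher at 0.2 mM at 16 days and lower at 25 days in both genotypes, a log2 change of -0.46, and this difference was not tested.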

How the results depend on the processing

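The nitrate average and the change of the nitrate effect between days kept their direction and call for *PCC1* and *CYSTM8* under all 34 alternatives each. Over the alternatives other than single libraries, the nitrate average was -1.0 to -0.95 for *PCC1* and -0.97 to -0.91 for *CYSTM8*, and the change between days -1.27 to -1.10 and -1.63 to -1.57. With single libraries left out, the nitrate average was -1.07 to -0.90 for *PCC1*, -1.02 to -0.87 for *CYSTM8* and -0.03 to 0.13 for AT3G22240. The change between days was then -1.31 to -0.98 for *PCC1* and -1.76 to -1.46 for *CYSTM8*. The day average was then -0.14 to 0.02 for *PCC1*, -0.58 to -0.43 for *CYSTM8* and -0.62 to -0.44 for AT3G22240. The uncalled day average of *PCC1* turned to 0.02 once replicate 3 from 25-day wild type on 0.2 mM was left out, the plant with the lowest *PCC1* value. The uncalled nitrate effect of *CYSTM8* in *nrt1.13* at 16 days ran from -0.33 to 0.05, the latter without replicate 2 at 0.2 mM. The uncalled nitrate average of AT3G22240 turned to between -0.03 and 0.00 (-0.03, -0.02 and -0.00) without any of 6 libraries. The genotype difference was 0.07 to 0.24 for *PCC1* and -0.09 to 0.08 for AT3G22240 over single libraries left out. That of *CYSTM8* was above 0 under all 31 alternatives, which is no test of it. The gene was selected for this difference, and its genotypes did not overlap in any condition. Leaving out a single library could therefore not turn the sign. The day average of AT3G22240 was -0.27 and -0.37 with pseudocounts of 1 and 0.5. The ratio differences kept their direction and call throughout, at 0.23 to 0.30 and -0.22 to -0.16 for nitrate at 16 and 25 days and -0.71 to -0.64 and -0.24 to -0.19 for day at 0.2 and 2 mM. The change of the nitrate effect of *PCC1* between days within *nrt1.13* (-0.84) was no longer called under 4 of 34 alternatives (-0.84 to -0.67).

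An FC of at least 1.8 was also required, with the adjusted or the unadjusted *P*. With it, 4 of the 19 salicylic acid genes were lower at 0.2 mM in place of 14. The change between days toward lower values was then called for 3 in place of 12. Over all 15108 genes tested, 62 were lower at 0.2 mM in place of 3045. The change was called for 322 of all genes in place of 3837. Without the FC limit, the list counts stayed at 14 and at 12 to 13 over single libraries left out. Counts over all genes moved by over 1.5 times under some settings in the comparisons within 16 days or within 2 mM. With 463 genes lower at 0.2 mM in wild type at 16 days, 263 were called without a filter, 265 without the trend and 749 by DESeq2. In *nrt1.13* at 16 days, 166 became 70, 78 and 351. With single libraries left out these counts went as low as 50 and 21, and the second as high as 348. For the 25-day increase at 2 mM, DESeq2 called 576 in place of 372 in wild type and 967 in place of 577 in *nrt1.13*, and single libraries gave as few as 181 and 283.

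Plants with the same replicate number in the labels shared little deviation from their group means, which cannot show whether they were handled together. Deviations from the group means correlated at -0.216 to 0.39 (median 0.0254) between same-numbered plants and at -0.362 to 0.342 (median 0.00229) between others. With the replicate block the nitrate average was -0.99 for *PCC1* and -0.96 for *CYSTM8*, and no call for these genes changed. The unique sequence of *CYSTM8* is 167 words of 75 bases with exact matching and 86 with up to 2 mismatches. How pairs with 1 unique mate were assigned is not given, so how far its values rest on this sequence is not known.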
